A study of Homo sapiens with 24 samples.

Results

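The genes examined here are 48 regulators of the G2/M transition and of mitosis, chosen by name, out of 19775 genes with a probe set annotated to a single symbol. They were measured in P3HR1, a cell line from a Burkitt lymphoma, positive for Epstein-Barr virus and carrying a doxycycline-inducible pRTS1 vector. In miR-28 cells the vector made green fluorescent protein (GFP) together with the miR-28 precursor, and in control cells it made GFP alone. The 4 groups were miR-28 cells and control cells after 24 h of induction, and miR-28 cells and control cells after 12 h, with 6 Affymetrix arrays each. Each genotype had 2 bulk populations, A and B, and each population was induced 3 times per time point, so a group of 6 arrays rests on 2 populations of a single line. All groups received doxycycline, at a dose that the labels give as 0.1 ug/ml in one field and 1 ug/ml in another. All arrays were of induced cells, so differences that the populations already had without doxycycline and effects of miR-28 cannot be told apart.

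Entry into mitosis is driven by CDK1 bound to cyclin A or cyclin B. The kinases WEE1 and PKMYT1 hold CDK1 inactive by phosphorylation, and the CDC25 phosphatases release it. Aurora and Polo-like kinases then build the spindle, condensin compacts the chromosomes, and the ubiquitin ligase APC/C ends mitosis by marking cyclin B and other proteins for destruction. Most of these genes are transcribed in waves, late in each cycle, by MYBL2 (B-MYB) with the MuvB complex and by FOXM1, and are held down outside that window by the DREAM complex. The promoters often carry a cell cycle gene homology region (CHR) close to the transcription start and CCAAT boxes before it. MicroRNA miR-28 is found in germinal centre B cells and is known for a reduced level in B-cell lymphomas.

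The mature miR-28-3p strand of the expressed precursor is shown (RefSeq, GRCh38.p14). Its seed, bases 2 to 8 in capitals, is what a microRNA uses to pair with messenger RNA. The sequence lies on chromosome 3 on the plus strand, at chr3:188688834-188688855.
hsa-miR-28-3p: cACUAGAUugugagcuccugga
The sequence of the other mature strand of this precursor, miR-28-5p, was not at hand, so that strand is named only.

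Promoter letters are a feature that the choice of genes did not use. RefSeq windows of 250 bases before to 50 after a transcription start (GRCh38.p14) matched 40 of the 48 genes, in 55 windows. BIRC5, UBE2C, RACGAP1, TPX2, PKMYT1, WEE1, AURKA and FOXM1 had no window in the table. A CHR, searched as TTTGAA or TTCGAA on both strands, stood in a window of 30 of the 40 genes (75%), against 1481 of 9245 other tested genes with a window (16.02%). CCAAT on either strand stood in 32 of 40 (80%) against 43.6%, and both together in 24 of 40 (60%) against 6.59%. In 18 of the 40 genes (45%), against 2.72% of the others, a CHR began within the last 50 bases before the start. E2F letters, searched as TTTCCCGC, TTTCGCGC, TTTGCCGC or TTTGGCGC on both strands, stood in 3 of 40 (7.5%) against 6.54%. Other forms of an E2F site were not searched and count as absent, so this share does not show how many promoters hold one. These matches describe letters and not bound sites.

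The windows of CCNB2, CDCA8, GTSE1 and CKS2 are shown as examples with a CHR close to the start. Signal of the first 3 genes was called lower in miR-28 than in control cells at 24 h, while that of CKS2 did not pass the test. The same letters thus stand before genes on both sides of the threshold. Capitals mark the CHR, which reads TTTGAA here, or its reverse complement where it lies on the minus strand. They also mark the CCAAT boxes, which read ATTGG where they lie on the minus strand. The windows lie on the plus strand at chr15:59104896-59105195, chr1:37692266-37692565, chr22:46296620-46296919 and chr9:89310945-89311244, and hold the promoter and the first 50 transcribed bases.
CCNB2: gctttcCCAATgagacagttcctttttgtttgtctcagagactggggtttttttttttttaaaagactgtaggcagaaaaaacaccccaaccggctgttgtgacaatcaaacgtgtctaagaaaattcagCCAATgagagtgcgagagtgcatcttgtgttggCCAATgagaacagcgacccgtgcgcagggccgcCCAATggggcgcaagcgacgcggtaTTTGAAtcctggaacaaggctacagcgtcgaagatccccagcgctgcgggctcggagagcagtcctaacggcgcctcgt
CDCA8: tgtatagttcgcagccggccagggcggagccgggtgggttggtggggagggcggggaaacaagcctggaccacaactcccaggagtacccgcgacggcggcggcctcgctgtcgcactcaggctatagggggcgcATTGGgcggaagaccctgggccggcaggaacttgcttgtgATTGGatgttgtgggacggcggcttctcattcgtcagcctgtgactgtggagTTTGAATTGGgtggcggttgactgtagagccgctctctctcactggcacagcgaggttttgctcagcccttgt
GTSE1: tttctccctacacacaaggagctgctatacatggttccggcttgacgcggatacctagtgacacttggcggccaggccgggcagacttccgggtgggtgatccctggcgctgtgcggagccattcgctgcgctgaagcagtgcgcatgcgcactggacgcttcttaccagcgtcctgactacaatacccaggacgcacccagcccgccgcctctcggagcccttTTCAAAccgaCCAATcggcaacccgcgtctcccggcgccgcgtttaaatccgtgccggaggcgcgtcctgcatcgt
CKS2: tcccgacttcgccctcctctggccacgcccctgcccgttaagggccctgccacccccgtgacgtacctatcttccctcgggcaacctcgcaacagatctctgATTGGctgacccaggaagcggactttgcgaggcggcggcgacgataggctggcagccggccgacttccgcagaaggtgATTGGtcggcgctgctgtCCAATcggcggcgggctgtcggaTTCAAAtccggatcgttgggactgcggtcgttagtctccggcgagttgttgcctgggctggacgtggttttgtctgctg
The CHR began 29 bases before the start in CCNB2 and CKS2, 23 in CDCA8 and 26 in GTSE1. In CDCA8 the last base of the CHR was also the first of an ATTGG. Among the genes with a window, 9 of the 14 called lower at 24 h and 21 of the 26 others had a CHR. Only TTTGAA and TTCGAA were searched, so any other form of a CHR counts as absent. CCNA2, which has CTTGAA close to the start, is among the genes counted without one.

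No difference in array quality between the genotypes passed in 6 exact two-sided permutation tests (lowest p 0.0823, 0.494 after Benjamini-Hochberg adjustment). The tests shuffle the arrays of a time freely, although these come from 2 populations per genotype, and cannot show that quality was equal. The median intensity averaged 80.7 ± 5.12 on miR-28 arrays and 84.2 ± 4.96 on control arrays at 24 h (SD, n = 6; exact permutation p 0.266). Correlation between arrays of a group ran from 0.954 to 0.969 across genes, and no arrays held identical values. Control array B2 of 24 h stood apart in the log2 ratio of 3' to 5' probe sets, with 1.59 for ACTB against at most 1.05 on the other arrays and 0.29 for GAPDH against at most 0.11. Without it 17 of the 48 genes described below were called lower at 24 h instead of 18. CDK1, which was highest on it, lost its call, as did CCNB1 and SMC2, while other genes gained one. Of 7 B-cell markers 6 were measured, with a median intensity of 9287, against medians of 32.8 to 53.0 for the marker lists of T cells, myeloid cells, NK cells and fibroblast and epithelial cells. At 24 h limma called 2 of the 6 B-cell markers (CD79B and BLNK, both higher) and 2 of 5 germinal centre markers (RGS13 and SERPINA9, both lower). Over all tested genes the same test called 2.75% lower and 2.6% higher. It called 0 of the tested markers of other cell types. Most of those lay below the filter and were not tested. Above it were 1 of 6 T-cell, 2 of 4 myeloid, 1 of 4 NK and 2 of 5 fibroblast and epithelial markers. The summed intensity of the B-cell markers ran from 52832 to 58563 on miR-28 arrays and from 51177 to 57439 on control arrays at 24 h, and that of the germinal centre markers from 17172 to 22173 on miR-28 arrays and from 20319 to 25853 on control arrays. The summed T-cell markers lay between 175 and 459 on miR-28 arrays and between 225 and 423 on control arrays. The part of these markers in the results was not tested.

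After 24 h of induction 18 of the 48 genes (37.5%) were called lower in miR-28 than in control cells and 0 higher. Calls are at a limma adjusted p under 0.05, and all 48 lay above the filter on dim probe sets. Where the genotypes are compared, a gene that fell or rose is one lower or higher in miR-28 than in control cells. Such a gene need not have changed with time in miR-28 cells. The same test called 2.75% of the 11380 tested genes lower and 2.6% higher. The median log2 fold change was -0.27 over the 48 genes against 0.02 over all tested genes. Levels are given as linear MAS5 intensities, scaled to the same trimmed mean on every array, of the brightest probe set of a gene, and fold changes as differences between group means of log2(intensity + 8). Among the genes that fell were the cyclin gene CCNA2 (-0.45 ± 0.09, log2 fold change ± SE), CDK1 (-0.30 ± 0.08), the kinase genes AURKA (-0.42 ± 0.08) and PKMYT1 (-0.73 ± 0.16), and the transcription factor gene FOXM1 (-0.47 ± 0.09). Altogether 46 of the 48 estimates were below 0, against 5245 of all 11380 tested genes. An unadjusted p under 0.05 was found for 37 of the 48 (23 with the arrays centred on their medians), against 2135 of all tested genes.

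The 2 populations of each genotype pointed the same way. In 41 of the 48 genes (85.4%) both miR-28 population means lay below both control population means at 24 h, against 21.6% of all tested genes. In 7 genes (14.6%), namely CCNA2, CDK1, PKMYT1, AURKA, CDCA8, FOXM1 and NCAPG, all 6 miR-28 arrays lay below all 6 control arrays, against 1.9% of all tested genes. The exceptions to the order of population means were UBE2S, CDC25C, FZR1, INCENP, CKS2, CDC25B and NCAPD2. Fitted separately, population A gave a median of -0.28 over the 48 genes and population B one of -0.30, with 45 and 43 estimates below 0, but limma called 0 of the 48 genes in either (21 and 20 with an unadjusted p under 0.05). With population means as the unit, which leaves 2 against 2, it called 0 as well, with 29 at an unadjusted p under 0.05. Counts over all tested genes in these smaller fits are not given. Whether the 0 calls are particular to the 48 genes therefore cannot be read from them. In these bulk samples fewer cells in G2 and mitosis and less of each transcript per cell cannot be told apart.

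**Figure D1:**
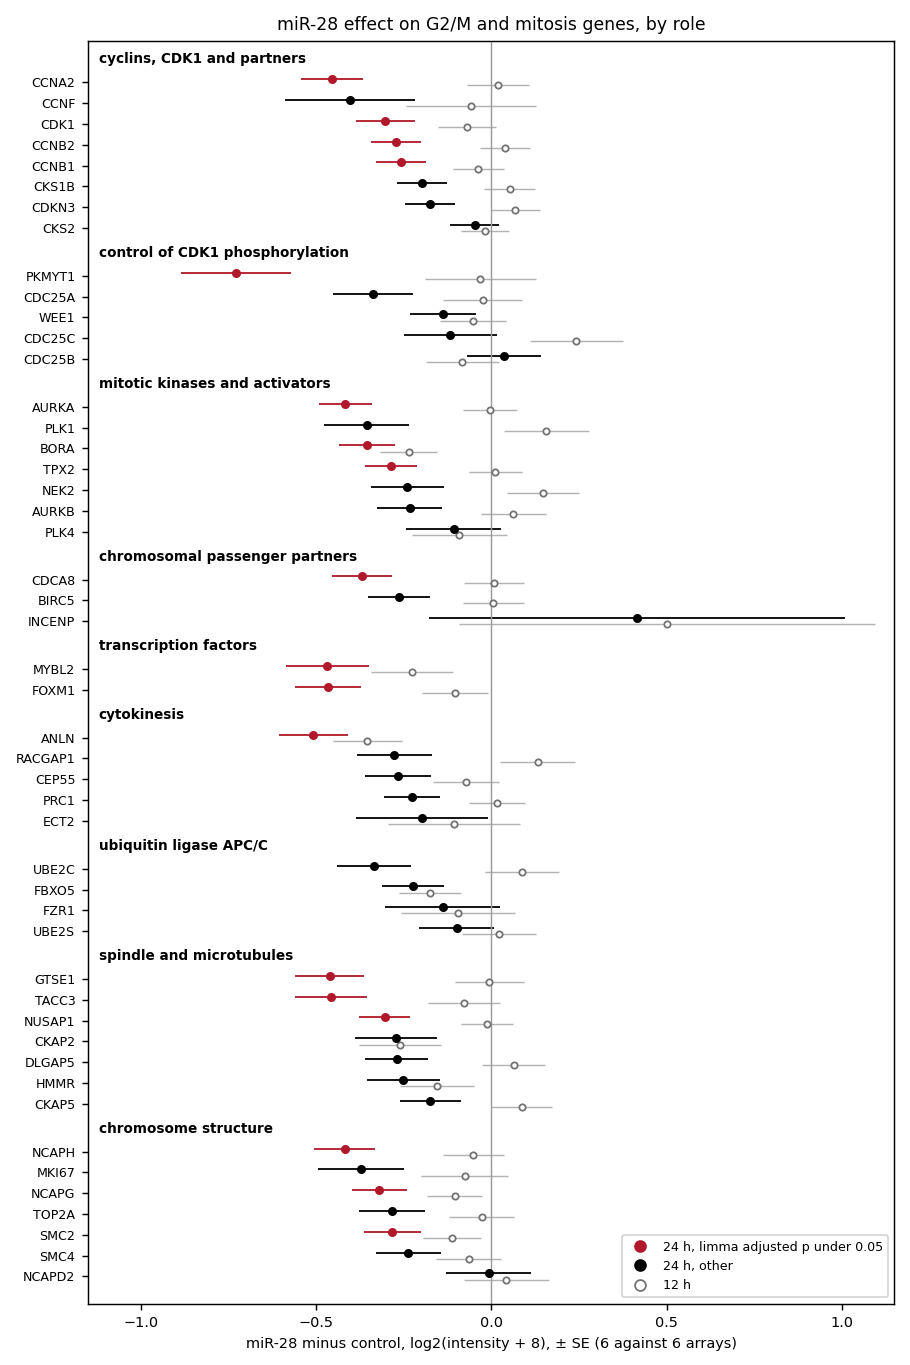
Difference between miR-28 and control cells for each of the 48 genes, by role, in log2(intensity + 8) with its standard error (6 against 6 arrays); filled points are 24 h and open points 12 h. At 24 h 46 of the 48 points lie left of 0 and 18 are called (red), while at 12 h 29 lie left of 0 and 0 are called.

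Among cyclins, CDK1 and their partners, 4 of 8 genes fell at 24 h, with a group median of -0.27. Signal of CCNA2, the cyclin of S phase and G2, ran from 3300 to 4530 on the 6 miR-28 arrays (median 3846), against 4839 to 5853 on the 6 control arrays (median 5411). No miR-28 array reached the lowest control array, and the means were 3933 ± 502 and 5366 ± 388 (SD, n = 6 each; limma adjusted p 0.00295). Intensity of the B-type cyclin gene CCNB2 was 5156 to 5966 (median 5506) in miR-28 cells and 5836 to 7166 (median 6807) in control cells. Of the miR-28 arrays 5 lay below every control array (-0.27 ± 0.07; limma adjusted p 0.0244). The other B-type cyclin gene, CCNB1, fell by 0.26 ± 0.07, and CDK1 fell by 0.30 ± 0.08, to a mean of 14226 ± 1435 against 17586 ± 2464 in control cells. CKS1B and CDKN3, a CDK-binding subunit and a phosphatase that acts on CDKs, gave -0.20 ± 0.07 and -0.17 ± 0.07 without passing. CCNF, an F-box protein gene, gave -0.40 ± 0.19 with a wide spread and did not pass. The other CDK-binding subunit, CKS2, gave -0.05 ± 0.07 (95% interval -0.19 to 0.10), and its miR-28 arrays (14276 to 17331, median 15885) overlapped its control arrays (15012 to 19653, median 15888).

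Among the enzymes that set the phosphorylation of CDK1, 1 of 5 genes fell. PKMYT1, the membrane-bound inhibitory kinase, had 582 to 736 (median 647) on miR-28 arrays at 24 h and 977 to 1288 (median 1043) on control arrays. The groups did not overlap, and the difference of -0.73 ± 0.16 was the largest of the 48 (limma adjusted p 0.00666). The other inhibitory kinase, WEE1, gave -0.14 ± 0.09 and did not pass. CDC25A, an activating phosphatase that also acts at the G1/S transition, had 1425 to 1949 (median 1586) in miR-28 cells and 1776 to 2351 (median 2065) in control cells. Of its 6 miR-28 arrays 5 lay below all control arrays, but the difference did not pass (-0.34 ± 0.11, limma adjusted p 0.0846). The related phosphatase gene CDC25B ran from 2095 to 3116 (median 2762) in miR-28 cells and from 2110 to 3226 (median 2648) in control cells. Its groups overlapped throughout (0.04 ± 0.10), as did those of CDC25C (-0.12 ± 0.13).

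Mitotic kinases and their activators included 3 genes of 7 that fell. AURKA, the kinase of spindle poles, had the smallest adjusted p of the 48 genes (0.00202, limma), with 2271 to 2748 (median 2523) on miR-28 arrays and 3023 to 3640 (median 3462) on control arrays. The groups did not overlap. BORA, the cofactor through which AURKA activates PLK1, had 1899 to 2434 (median 2089) in miR-28 cells and 2310 to 3212 (median 2728) in control cells, with 5 miR-28 arrays below every control array (-0.35 ± 0.08). TPX2, which activates AURKA on spindle microtubules, fell by 0.29 ± 0.07. PLK1, the main Polo-like kinase of mitosis, gave -0.36 ± 0.12 and did not pass (limma adjusted p 0.0913). AURKB, the kinase of the chromosomal passenger complex, gave -0.23 ± 0.09, the centrosomal kinase gene NEK2 -0.24 ± 0.10 and the centriole kinase gene PLK4 -0.11 ± 0.14, and none of the 3 passed.

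The chromosomal passenger complex guides AURKB to centromeres and the midzone, and 1 of 3 of its other subunits fell. CDCA8, which encodes borealin, had 2329 to 2977 (median 2732) on miR-28 arrays and 3312 to 3683 (median 3409) on control arrays at 24 h. The groups did not overlap (-0.37 ± 0.09, limma adjusted p 0.0129). BIRC5, which encodes survivin, had 2929 to 3526 (median 3231) in miR-28 cells and 3398 to 4646 (median 3853) in control cells, with only the highest miR-28 array above the lowest control array (-0.26 ± 0.09, limma adjusted p 0.0825). INCENP, the scaffold of the complex, was measured by a single dim probe set, with 16 to 160 (median 111) in miR-28 cells and 8 to 160 (median 90) in control cells. The 0.42 ± 0.59 of INCENP therefore spans both directions (95% interval -0.81 to 1.64).

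Both transcription factors of the programme were called lower in miR-28 than in control cells at 24 h. FOXM1 had 861 to 1275 (median 990) on miR-28 arrays at 24 h and 1307 to 1547 (median 1433) on control arrays, without overlap (-0.47 ± 0.09, limma adjusted p 0.00398). MYBL2 had 1877 to 3232 (median 2579) in miR-28 cells and 2977 to 4405 (median 3542) in control cells (-0.47 ± 0.12, limma adjusted p 0.0199). Of the MYBL2 values 4 of the miR-28 arrays lay below every control array and the others overlapped.

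Cytokinesis was represented by 5 genes, of which 1 fell. ANLN, the anillin of the contractile ring, had 675 to 1055 (median 816) on miR-28 arrays and 1034 to 1305 (median 1180) on control arrays at 24 h (-0.51 ± 0.10, limma adjusted p 0.00319). Only the miR-28 array of replicate A1 reached into the control range. CEP55, a protein of the midbody, had 1333 to 1670 (median 1484) in miR-28 cells and 1565 to 2104 (median 1823) in control cells, and did not pass (-0.27 ± 0.09, limma adjusted p 0.101). PRC1, which bundles midzone microtubules, gave -0.23 ± 0.08, RACGAP1 of the centralspindlin complex -0.28 ± 0.11 and the cytokinesis gene ECT2 -0.20 ± 0.19, and none of these passed.

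None of the 4 genes of the APC/C group passed at 24 h, although 2 of them had an unadjusted p under 0.05. UBE2C, the ubiquitin-conjugating enzyme that starts chains for the APC/C, had 4699 to 6163 (median 5091) in miR-28 cells and 4961 to 7903 (median 6856) in control cells (-0.33 ± 0.10, limma adjusted p 0.0641). FBXO5, which encodes the APC/C inhibitor EMI1, had 1868 to 2268 (median 1949) in miR-28 cells and 2040 to 2675 (median 2406) in control cells (-0.22 ± 0.09, limma adjusted p 0.154). In both genes the groups overlapped. The chain-elongating enzyme gene UBE2S (-0.10 ± 0.11) and the APC/C activator gene FZR1 (-0.14 ± 0.16) gave estimates within their errors.

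Of 7 genes of the spindle and microtubules 3 fell. GTSE1, a microtubule-associated protein of G2 and mitosis, had 1799 to 2234 (median 1921) on miR-28 arrays and 2095 to 3229 (median 2791) on control arrays (-0.46 ± 0.10, limma adjusted p 0.00661). TACC3, which stabilises spindle fibres, had 1714 to 2536 (median 1980) in miR-28 cells and 2345 to 3438 (median 2700) in control cells (-0.46 ± 0.10, limma adjusted p 0.00958). Of the miR-28 arrays 4 for GTSE1 and 5 for TACC3 lay below every control array. NUSAP1, a nucleolar and spindle protein, fell by 0.30 ± 0.07. The spindle genes DLGAP5 (-0.27 ± 0.09), HMMR (-0.25 ± 0.11), CKAP2 (-0.27 ± 0.12) and CKAP5 (-0.17 ± 0.09) did not pass.

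Chromosome structure also had 3 of 7 genes that fell, all of them condensin subunits. NCAPH, the kleisin of condensin I, had 1138 to 1562 (median 1190) on miR-28 arrays and 1542 to 1926 (median 1650) on control arrays (-0.42 ± 0.09, limma adjusted p 0.00521). NCAPG, another condensin I subunit, had 2034 to 2830 (median 2418) in miR-28 cells and 2850 to 3265 (median 2892) in control cells (-0.32 ± 0.08, limma adjusted p 0.0176). The NCAPG groups did not overlap and those of NCAPH overlapped by 1 miR-28 array. SMC2, an ATPase subunit shared by both condensins, fell by 0.28 ± 0.08, close to the threshold (limma adjusted p 0.0469). Its partner SMC4 gave -0.24 ± 0.09 and the condensin I subunit gene NCAPD2 -0.01 ± 0.12. The proliferation marker gene MKI67 (-0.37 ± 0.12) and the topoisomerase gene TOP2A (-0.28 ± 0.09) did not pass.

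**Figure D2:**
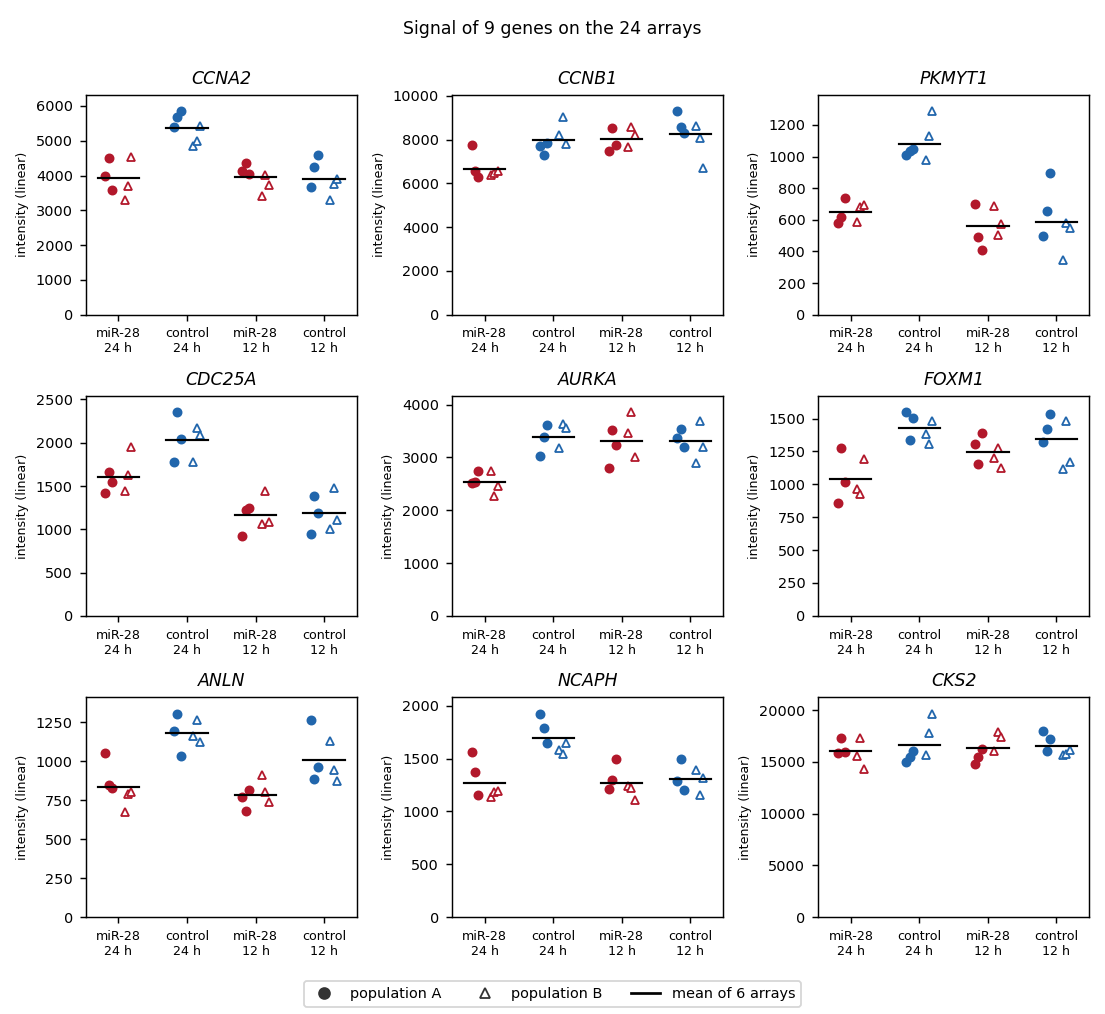
Signal of 9 of the genes on each of the 24 arrays (linear intensity, axis from 0; circles are population A and triangles population B, lines are means of 6 arrays). CCNA2, PKMYT1, AURKA and FOXM1 separate the genotypes at 24 h with no overlap, CCNB1, CDC25A, ANLN and NCAPH overlap by single arrays, and CKS2 overlaps throughout.

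The calls did not rest equally on all arrays. Of the 18, 11 were kept without each of the 24 arrays in turn: CCNA2, PKMYT1, AURKA, BORA, CDCA8, FOXM1, ANLN, NUSAP1, TACC3, GTSE1 and NCAPH. NCAPG lost its call without miR-28 array A3 at 24 h (limma adjusted p 0.0511), and MYBL2 without control array A1 (0.0517) or miR-28 array B1 (0.0528) at 24 h. CCNB2 lost it without 4 of the 24 h arrays, control A2 and B3 and miR-28 B1 and B2, with an adjusted p of up to 0.0618. TPX2 lost it without 5, control A1 and A2 and miR-28 A3, B1 and B2 (up to 0.0679), and CDK1 without 6, control A2, B2 and B3 and miR-28 A3, B1 and B2 (up to 0.0918). CCNB1 lost it without 9 of the 12 arrays of 24 h, with an adjusted p of up to 0.0806, the exceptions being control A1 and A2 and miR-28 A1. SMC2 lost it without 16 of the 24 arrays (up to 0.118), the exceptions being control A3, B1, B2 and B3 and miR-28 B1 and B3 of 12 h, and control B3 and miR-28 A1 of 24 h. Without the population term in the model 17 of the 48 genes were called. With the arrays centred on their medians 9 of the 48 were called, with a median of -0.22, and the calls over all genes were then 149 lower and 395 higher, against 313 lower and 296 higher with the authors' scaling.

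After 12 h the same genes gave 0 calls in either direction, where the test called 0.316% of all tested genes lower and 0.22% higher. Those calls over all genes were 36 lower and 25 higher, and 33 lower and 12 higher with the arrays centred on their medians. Of the 48 estimates 29 were below 0, against 5293 of all 11380 tested genes. The median over the 48 genes was -0.03, against 0.01 over all tested genes. The sign of this median rests on single arrays, since without each array in turn it ran from -0.05 to 0.02, and it was above 0 without control array A2 of 12 h, with 22 estimates below 0. Of the 48, 3 had an unadjusted p under 0.05, against 1100 of all 11380 tested genes. The 3 were ANLN (-0.35 ± 0.10, limma adjusted p 0.156), BORA (-0.24 ± 0.08, limma adjusted p 0.286) and CKAP2 (-0.26 ± 0.12, limma adjusted p 0.469). Signal of CCNA2 at 12 h was 3420 to 4370 (median 4025) in miR-28 cells and 3308 to 4585 (median 3820) in control cells, and that of AURKA was 2793 to 3852 (median 3349) in miR-28 cells and 2901 to 3683 (median 3281) in control cells. These groups overlapped fully. Both miR-28 population means lay below both control means in 11 of the 48 genes (22.9%), against 16.7% of all tested genes. All 6 miR-28 arrays lay below all 6 control arrays in 0 of the 48, against 0.422%.

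Whether the effect was larger at 24 h than at 12 h was tested with the interaction of genotype and time. It called 0 of the 48 genes and 0% of all tested genes in each direction, although 22 of the 48 and 787 of the 11380 genes had an unadjusted p under 0.05. The difference between the effects was below 0 in 47 of the 48 genes, against 5580 of all tested genes. Its median was -0.25, against 0.01 over all tested genes. With the arrays centred on their medians 8 of the 48 had an unadjusted p under 0.05 and 41 were below 0, with a median of -0.17. Population A alone gave 7 with an unadjusted p under 0.05 and population B alone 13. Counts over all tested genes are not given for these other fits, and the 787 of the main fit is not their background. For AURKA the interaction in the main fit was -0.41 ± 0.11 and for CCNA2 -0.47 ± 0.13 (limma adjusted p 0.431 for both). A call at 24 h and none at 12 h therefore does not show, for a single gene, that its effect grew.

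Each genotype was also followed on its own by setting its arrays of 24 h against those of 12 h. In miR-28 cells 8 of the 48 genes (16.7%) were lower at 24 h than at 12 h and 1 was higher, where the test called 2% of all tested genes lower and 2.65% higher. In control cells 0 of the 48 were lower and 7 (14.6%) were higher, against 2.54% and 3.6% of all tested genes. Of the 48 changes in miR-28 cells 37 were below 0, against 5647 of all 11380 tested genes. The median change was -0.14 in miR-28 cells and 0.10 in control cells. With the arrays centred on their medians it was -0.04 in miR-28 cells, with 28 below 0. In control cells it was 0.05 without array B1 of 12 h, 0.06 without array B3 of 12 h and 0.05 in population A.

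The genes that fell with time in miR-28 cells included mitotic kinase genes, BIRC5 and both B-type cyclin genes. BIRC5 fell by 0.55 ± 0.09 (limma adjusted p 0.00142), to 2929 to 3526 (median 3231) at 24 h against 4141 to 5343 (median 4779) at 12 h, without overlap. PLK1 fell by 0.49 ± 0.13, to 1905 to 2961 (median 2443) at 24 h against 2871 to 4060 (median 3344) at 12 h, with a small overlap. The others were NEK2 (-0.39 ± 0.11), AURKA (-0.38 ± 0.08), CCNB2 (-0.38 ± 0.07), DLGAP5 (-0.36 ± 0.09), GTSE1 (-0.35 ± 0.10) and CCNB1 (-0.27 ± 0.07). In control cells the same 8 genes gave -0.28 ± 0.09 for BIRC5, 0.02 ± 0.13 for PLK1, 0.10 ± 0.10 for GTSE1 and values between -0.07 and 0.04 for the rest, none of them called. CCNB2, AURKA and BIRC5 kept the call without each array in turn. The count of 8 fell to 5 or fewer without miR-28 array A1 (5), A2 (4), B1 (4), B2 (4) or B3 (5) of 12 h, or A3 (4), B1 (3), B2 (5) or B3 (5) of 24 h, and to 1 with the arrays centred on their medians, where the calls over all genes in miR-28 cells were 57 lower and 529 higher, against 228 lower and 302 higher with the authors' scaling.

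The genes that rose with time in control cells were other members of the programme. PKMYT1 had 977 to 1288 (median 1043) in control cells at 24 h, against 344 to 894 (median 564) at 12 h, a rise of 0.93 ± 0.16 (limma adjusted p 0.00125) without overlap. CDC25A rose by 0.79 ± 0.12 to 1776 to 2351 (median 2065) at 24 h, against 951 to 1477 (median 1152) at 12 h. The others were MYBL2 (0.55 ± 0.12), TACC3 (0.47 ± 0.11), CCNA2 (0.46 ± 0.09), CEP55 (0.41 ± 0.10) and NCAPH (0.37 ± 0.09). In miR-28 cells CDC25A was the 1 gene called higher (0.47 ± 0.12), and the other 6 gave between -0.01 ± 0.09 for CCNA2 and 0.31 ± 0.12 for MYBL2. CDC25A lost that call without miR-28 array A1 or B1 of 12 h or B3 of 24 h (limma adjusted p 0.0504 to 0.0568). All 7 calls in control cells were kept without each array in turn. Without control array A3 of 24 h 2 of the 48 genes were called lower with time in control cells. The comparisons share their 24 h arrays with the comparison of genotypes, so these values are set side by side and add no independent support to it.

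**Figure D3:**
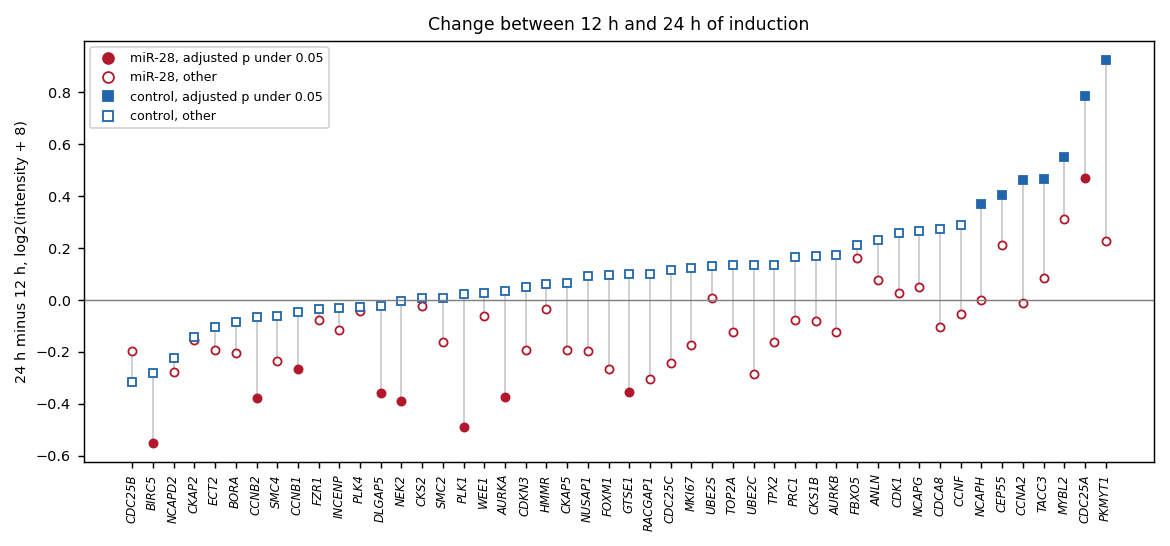
Change at 24 h relative to 12 h in log2(intensity + 8) for each of the 48 genes, in miR-28 cells (circles) and control cells (squares), ordered by the control value; filled symbols passed the test. The 7 filled squares stand at the right, from 0.37 to 0.93, and the 8 filled circles below 0 run from -0.27 to -0.55.

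Populations of the same genotype were compared to show how far they differ without miR-28 as the difference. Between populations B and A of miR-28 cells, over both times, limma called 0 of the 48 genes and 0% of all tested genes in each direction, with 1 of the 48 and 573 of all genes at an unadjusted p under 0.05. Between populations B and A of control cells it called 0 of the 48, against 0.0176% of all tested genes lower and 0.0703% higher, with 9 of the 48 and 947 of all genes at an unadjusted p under 0.05. The median over the 48 genes was -0.04 between the miR-28 populations and -0.12 between the control populations. Between the control populations 42 of the 48 were below 0, against 5793 of all 11380 tested genes. The mean of the 48 genes on each array, relative to the 24-array mean, shows where this lay. At 24 h it ran from -0.21 to -0.06 on the miR-28 arrays and from 0.07 to 0.20 on the control arrays, without overlap. At 12 h it ran from -0.06 to 0.03 on the miR-28 arrays, and on control arrays from 0.06 to 0.15 in population A and from -0.10 to -0.07 in population B. The control populations thus stood apart at 12 h on either side of the miR-28 arrays, and the median genotype difference at 12 h was -0.11 for population A and 0.05 for population B. No source pairs population A of one genotype with population A of the other. Residuals were taken from the mean of each population at each time. Those of the 48 genes had a median correlation of 0.05 over their 1128 pairs across 24 arrays, against -0.004 for pairs with other tested genes. The correlation was above 0.5 in 9.57% of the pairs among the 48, against 4.999% of pairs with other tested genes. A shift shared by the arrays of a population is removed with its mean, so these correlations do not measure it.

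**Figure D4:**
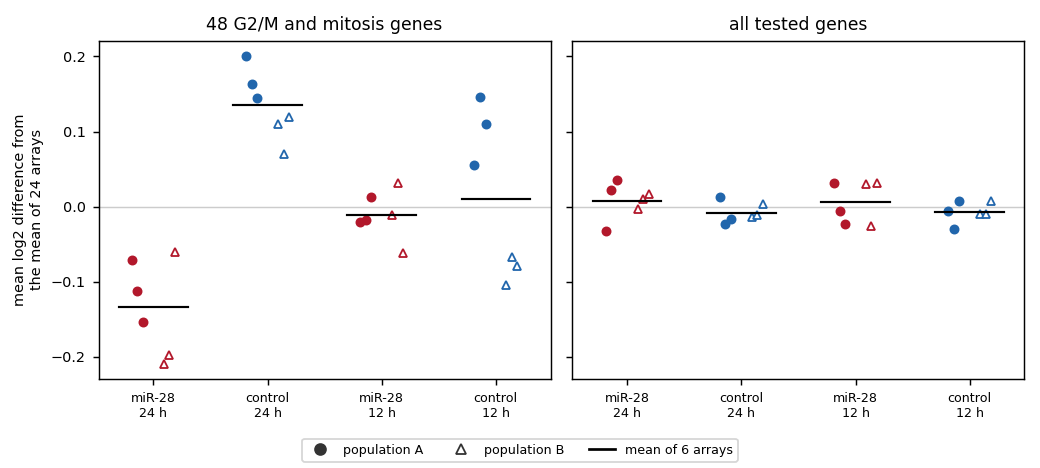
Mean log2 difference of each array from the 24-array mean, over the 48 genes (left) and over all tested genes (right); circles are population A, triangles population B, and lines are means of 6 arrays. Over the 48 genes the 24 h groups are separate, with miR-28 arrays at -0.21 to -0.06 and control arrays at 0.07 to 0.20, while over all tested genes the arrays lie between -0.03 and 0.04.

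Other probe sets of the same genes gave a second reading. The 48 genes had 96 probe sets, 20 genes with 1 and 28 with more, and 91 lay above the filter. Of the 43 that were not the brightest of their gene, 39 were lower at 24 h. In a fit of all probe sets, 5 of the 43 were called lower, one each for CDK1 (-0.36 ± 0.09), AURKA (-0.37 ± 0.08), GTSE1 (-0.38 ± 0.09), CCNA2 (-0.43 ± 0.12) and HMMR (-0.37 ± 0.10), and 0 higher. That fit called 20 of the 91 probe sets lower (22%), against 1.85% of 22043. Of the brightest probe sets of the 18 genes called lower by gene, it called 15. Those of CDK1, CCNB1 and SMC2 did not pass in it (limma adjusted p 0.0516, 0.0596 and 0.0687). For the 18 genes called lower, 14 other probe sets lay above the filter and 13 were lower too. The exception was a dim probe set of CCNB2 (0.33 ± 0.25). Probe sets of a gene share the RNA of each array and are not replicates.

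**Figure D5:**
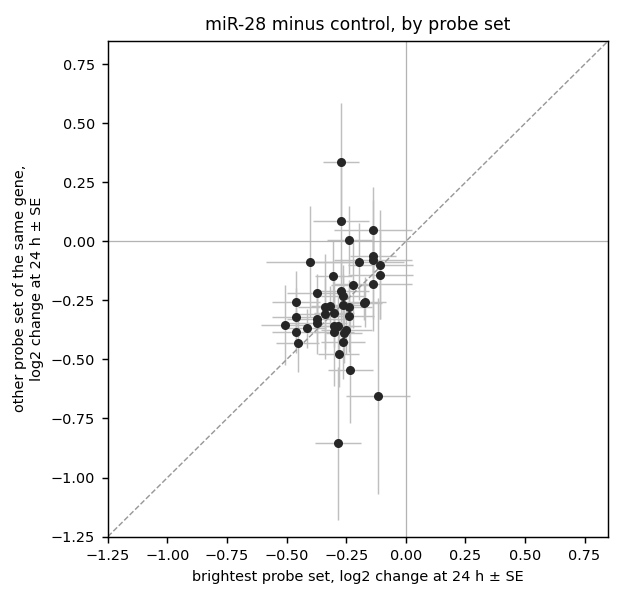
Difference between miR-28 and control cells at 24 h for the 43 further probe sets (y axis) against the brightest probe set of the same gene (x axis), both in log2(intensity + 8) with standard errors. Of the 43 points 39 lie below 0 on the y axis.

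Other genes of the cell cycle were taken from 3 lists, to be read against the 2.75% of all tested genes called lower and the 2.6% called higher at 24 h. Of 46 measured genes of other G2/M and mitosis factors, such as kinesins, kinetochore and checkpoint genes, 19 fell and 0 rose at 24 h, with a median of -0.30. The 4 with the smallest p were SKA1 (-1.47 ± 0.21) and KNSTRN (-0.49 ± 0.08), of the kinetochore and spindle, the separase gene ESPL1 (-0.51 ± 0.08) and the kinesin gene KIF15 (-0.51 ± 0.09). SKA1 was the 1 gene of this list also called lower at 12 h (-1.02 ± 0.21), where 23 of the 46 estimates were below 0. Of 34 measured genes of the G1/S transition and DNA replication, 16 fell and 0 rose, with a median of -0.37, led by the clamp loader gene RFC3 (-0.92 ± 0.10), E2F2 (-0.77 ± 0.10), the primase gene PRIM1 (-0.46 ± 0.07) and GINS2 (-0.44 ± 0.07). At 12 h RFC3 (-0.54 ± 0.10) and E2F2 (-0.48 ± 0.10) were already called lower, and all 34 estimates were below 0, with a median of -0.13. With time 17 of these 34 genes were called higher in miR-28 cells, against 2.65% of all tested genes, and 29 in control cells, against 3.6%. The median change with time was 0.36 in miR-28 cells, where 2 estimates were below 0, and 0.55 in control cells. Of 14 measured genes of the DREAM complex and other repressors of cell cycle genes, 1 fell, the atypical repressor gene E2F7 (-0.49 ± 0.13, limma adjusted p 0.022). LIN54, the CHR-binding subunit of MuvB (-0.47 ± 0.34), the E2F partner gene TFDP1 (-0.18 ± 0.055) and the CDK inhibitor gene CDKN1A (-0.27 ± 0.21) did not pass.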

How the data were processed

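RNA from 24 cultures of P3HR1 cells was hybridised to Affymetrix arrays of 54675 probe sets. The deposited values are linear intensities, which the authors made with MAS5 per the submitters' processing notes, with no version given there. Each array's mean intensity after trimming 2% at each end was the same, so the arrays had been scaled. No depth applies to arrays, and their number limits the precision.

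From these values log2(intensity + 8) was computed. Of the probe sets, 62 were controls, 41091 had a single gene symbol in the platform annotation, 1801 several and 11721 none. The brightest probe set stood for each gene, and 11380 of 19775 genes with a mean above the median of all probe sets (6.11 on the log2 scale) were tested. Group means of genotype and time were fitted with limma 3.58.1 (R 4.3.3, statmod 1.5.0), with the 4 bulk populations as a random block. The estimated correlation within populations was -0.02. Relative to a fit without the block this makes errors slightly smaller for genotype differences. For changes with time and the interaction, which lie within populations, it makes them slightly larger. Tests were two-sided with Benjamini-Hochberg adjustment over all tested genes, called at an adjusted p under 0.05. Populations of a genotype were compared in a fit of genotype, population and time without the block. Inductions are separate treatments of the same populations, so p-values mainly measure the spread between inductions. Fold changes are on the log2(intensity + 8) scale and understate the changes of dim genes. Intensities of different genes were set against each other or summed only for the cell type markers. The fit was tested on simulated data, where the share of false calls came out above the nominal threshold. The calls, most of all those close to the threshold, are therefore less certain than their adjusted p says. The simulated arrays held no differences between populations, so they cannot check the population term. Replicate numbers did not pair the arrays: same-numbered arrays of the genotypes correlated at -0.09 to 0.07 in their deviations, with 0 of 12 pairs over 0.1.

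The 48 genes, the other gene lists, the markers and the rule for naming genes were chosen with earlier results of these data known. All 48 genes are accounted for, and the 2 with the smallest p at 24 h in each role group, with 2 of opposite sign, are given in full. Alternatives were the pseudocount, the filter, the normalization, the probe set rule, the block, each population alone and leaving out each array.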

Additional observations from a re-analysis of the deposited data

Results flagged for a closer look

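Each of the 192 groups of 6 arrays (48 genes in 4 groups) was tested for a single array far from the rest by Dixon's ratio at the 95% level. Chance flags about 1 in 20 groups, and 7 were flagged here. In miR-28 cells at 24 h, CCNB1 was highest on array A1 (7732, the next being 6580), CDK1 was lowest on array B2 (11493, the next being 14080) and INCENP was lowest on array A2 (15.9, the next being 83.2). In control cells at 12 h, PLK4 was highest on array A2 (1685, the next being 1108), BORA was lowest on array A1 (2487, the next being 2852), RACGAP1 was highest on array A1 (6913, the next being 5750) and INCENP was lowest on array B2 (9.17, the next being 69.0). Control array A1 of 12 h carried 2 of these values and no other array more than 1. The high CCNB1 array and the low CDK1 array both belong to a group whose difference was called at 24 h.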

How the results depend on the processing

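The results were recomputed under 38 alternatives, of which 24 left out 1 array each. The count of 18 genes lower at 24 h was 11 with no filter on dim probe sets, 9 with median centring, 0 in population A alone, 0 in population B alone and 0 with population means as the unit, and ran from 12 to 19 without 1 array. The count of 8 lower with time in miR-28 cells was 3 with no filter, 1 with median centring, 4 with the mean of a gene's probe sets, 5 with all probe sets, 0 in population A, 0 in population B and 0 with population means, and 3 to 8 without 1 array. The 1 gene higher with time in miR-28 cells became 0 with no filter, 0 in either population, 0 with population means and 2 with the mean of the probe sets, and 0 to 2 without 1 array. With time in control cells the 7 higher were 0 in population A, 1 in population B and 0 with population means (7 to 8 without 1 array), and the 0 lower were 2 with the stricter filter, 1 with quantile normalization and 2 with trend and robust (0 to 2 without 1 array). With a replicate block 23 genes were lower at 24 h, 7 lower and 1 higher with time in miR-28 cells, and 8 higher with time in control cells. At 12 h, in the interaction and between populations of a genotype the count was 0 in limma under every alternative run. Of 7288 single values 245 lost a call and 45 gained one. The sign turned in 246, none of them called, and in 5 of these the value both moved by and had been larger than its standard error: CDC25C at 12 h (-0.0689 in population A), and with time CKS1B (0.0182, median centring), CDC25C (0.0394, population A) and CKAP2 (0.0391, population A) in miR-28 cells and CKAP2 (0.016, population B) in control cells. Fewer arrays were fitted in the single populations, and otherwise the cause was not tested.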
